A study of Homo sapiens with 24 samples.

Results

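The genes described here form the insulin and insulin-like growth factor (IGF) axis: the ligand IGF2, the receptors INSR, IGF1R and IGF2R, the adaptors IRS1 and IRS2, the binding proteins IGFBP2, IGFBP3 and IGFBP5, and the transcription factor FOXO1. They were chosen by symbol, and all 10 were found among the 18889 genes of the deposited expression table. To model hyperglycemia, the study used HCC1500, ZR-75-30 and MDA-MB-175, 3 lines established from human breast cancers that express the estrogen receptor (ER+). Cells were exposed for 48 hours to a glucose concentration of 5 mM (low glucose, the control) or 25 mM (high glucose). RNA-Seq was done on 4 replicates in each of the 6 groups, 24 samples in all. According to the study's methods, all cells were first conditioned in low glucose and the test media contained no serum, in both arms alike. A mannitol control for osmolarity was used in some of the study's experiments, and none was analysed here. Each line is 1 established culture, and the labels do not say whether replicate flasks were handled separately, so p-values measure the spread between these samples only.

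Insulin and IGFs act through INSR and IGF1R, receptor tyrosine kinases that phosphorylate the adaptors IRS1 and IRS2. The adaptors recruit PI3 kinase, AKT is activated, and AKT keeps FOXO1 out of the nucleus; when the pathway is quiet, FOXO1 enters the nucleus and drives its target genes, INSR and IRS2 among them. IGF2R, the cation-independent mannose-6-phosphate receptor, carries IGF2 and lysosomal enzymes to lysosomes and does not signal as a kinase. IGF-binding proteins hold IGFs in the extracellular space, and in breast tissue IGF1R and IRS1 are known as estrogen-responsive genes. None of this was measured here beyond transcript levels, and RNA does not report on receptor activation.

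Values are in the units of the deposited table, which are read counts scaled by a single factor for each sample. Reads per sample ran from 9140024 to 17998819, and 3 reads, used here as the detection floor, correspond to values of 0.95 to 2.29. In HCC1500 every high-glucose library held fewer reads (9423472 to 12140912) than every low-glucose library (13190982 to 17998819). The glucose-responsive gene TXNIP was higher in every high-glucose sample than in every low-glucose sample of its line, for example 5080 to 5510 against 2475 to 2615 in HCC1500. Of 9 luminal epithelial markers, 8 had a mean of at least 10 in MDA-MB-175 and in ZR-75-30, where the progesterone receptor gene PGR was the one below it, and 9 in HCC1500. Summed fibroblast markers stayed between 78.6 and 295 in every sample against 31595 to 64553 for luminal markers. In MDA-MB-175 the listed endothelial markers summed to at most 95.3, adipocyte markers to 209 and basal markers to 60.8. The highest such sums in the other lines were 10.7, 3.98 and 33.8. Leukocyte markers, of which CD68 and CD14 were listed, summed to 2.01 to 5.69 at low and 5.08 to 12.5 at high glucose in MDA-MB-175. The same sums were 5.54 to 6.82 and 33.6 to 43.9 in ZR-75-30, and 1.72 to 3.801 and 10.03 to 28.2 in HCC1500; their part in the results was not tested.

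One library stood apart. HCC1500 high glucose replicate 3 had a mean correlation of 0.944 with its group, and every other library at least 0.99. Across 13125 genes, its deviation from the other libraries of its group followed the merged exon length of the gene (Spearman's rho -0.54). Genes with long exon sequence were low and those with short exon sequence high. The axis genes took part in this: against the other 3 cultures IGF2R, with a canonical transcript of 14061 bases, was at 1935 against a mean of 3850, and IGFBP2, with 1414 bases, at 4550 against 1642. IRS2 was the member that stayed level, at 86.9 against 87.3. The middle 50% of genes in its decile of canonical transcript length lay between -1.14 and -0.27 on the log2 scale. HCC1500 results are therefore given with all 8 samples and without this library.

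**Figure D1:**
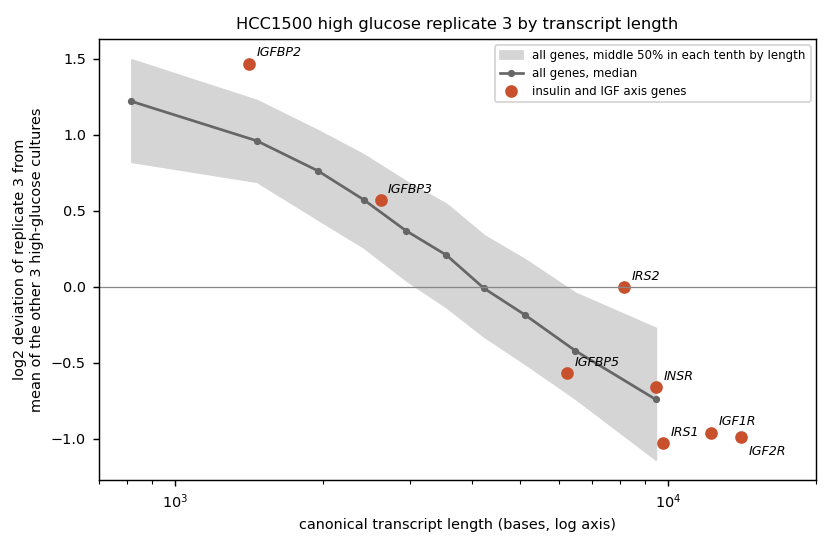
Log2 deviation of HCC1500 high glucose replicate 3 from the mean of the other 3 high-glucose cultures (vertical axis) against canonical transcript length in bases (horizontal, log axis); points are the 8 axis genes with a mean of at least 10, and the line and band are the median and middle 50% of all genes in deciles of length. Short IGFBP2 was 1.47 above and long IGF2R 0.99 below the other cultures, and IRS2 was level at a length where the median gene was 0.74 below.

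ZR-75-30 and MDA-MB-175 cells had higher RNA for the receptors, IRS2 and FOXO1, and lower RNA for IGFBP5, at high glucose. In MDA-MB-175, 8 of 10 members passed the test (limma on log2(value + 1), adjusted p under 0.05 over all genes tested). Of these, 5 rose (INSR, IGF1R, IGF2R, IRS2, FOXO1) and 3 fell (IRS1, IGFBP3, IGFBP5), where 11.9% of all genes tested rose and 13.7% fell. In ZR-75-30, 9 members could be tested, 7 rose (INSR, IGF1R, IGF2R, IRS2, IGFBP2, IGFBP3, FOXO1) and 1 fell (IGFBP5), against 23.4% and 22.7% of all genes. In HCC1500, 2 of 8 members tested passed with all samples, IRS2 and IGFBP3, and both rose, against 7.46% of all genes rising and 13% falling. Without replicate 3, 7 of the 8 passed, with 5 rising (IGF1R, IGF2R, IRS1, IRS2, IGFBP3) and 2 falling (IGFBP2, IGFBP5), against 20.9% and 37.7% of all genes. INSR was the member that did not pass in HCC1500 under either choice.

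In HCC1500 without replicate 3 the median change of all genes was -0.12 on the log2 scale as deposited, with 3390 genes called higher and 6114 lower. Rescaled by TMM, the median was -0.0018, with 4754 higher and 4458 lower. With all 8 samples the split moved from 1221 higher and 2129 lower to 1717 and 1801. Members called in HCC1500 without replicate 3 kept their direction under every rescaling tried, and INSR is treated below.

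**Figure D2:**
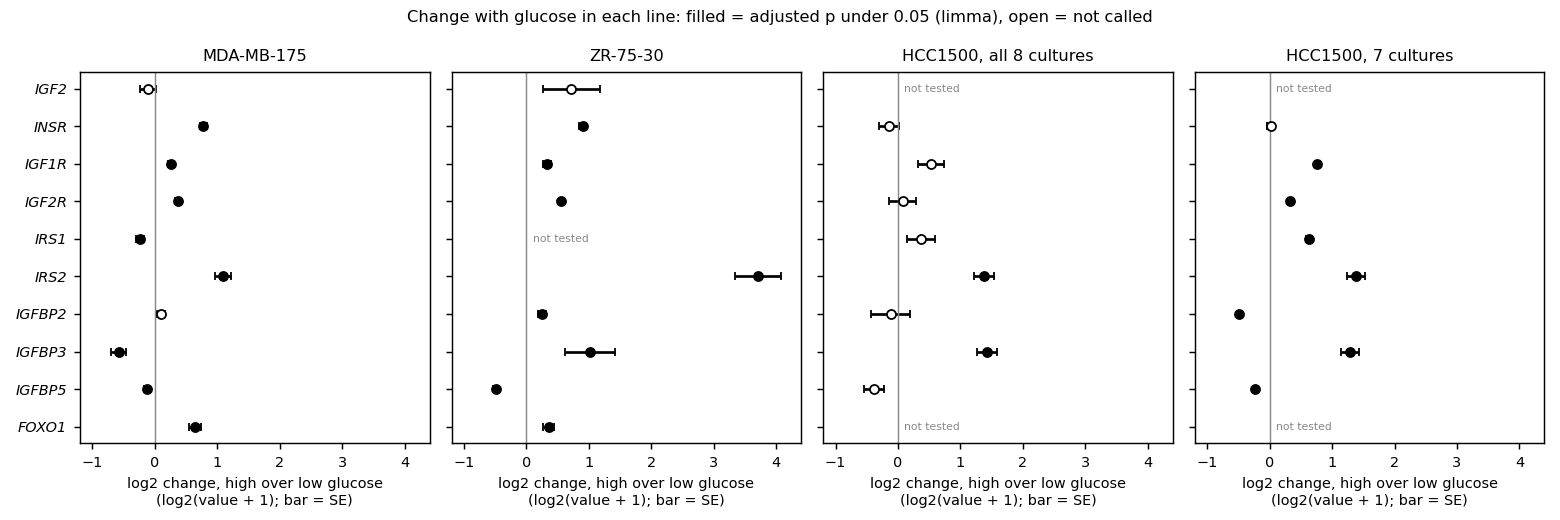
Log2 change of each axis gene, high over low glucose on the log2(value + 1) scale (horizontal axis), in MDA-MB-175, ZR-75-30, HCC1500 with all 8 cultures and HCC1500 with 7; bars are SE, and filled points have an adjusted p under 0.05 (limma). IRS2 lies to the right of 0 in every panel, IGFBP5 to the left, and INSR is at 0.78, 0.90, -0.15 and 0.02.

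IGF2, the fetal growth ligand expressed from an imprinted locus (chr11:2150342-2179621, minus strand, GRCh37), was found at measurable levels in MDA-MB-175 only among the 3 lines. Its values there were 59.8, 61.6, 56.4 and 43.8 at low glucose and 55.8, 49.4, 45.3 and 54.2 at high glucose. The groups overlapped, and the log2 change of -0.11 ± 0.13 (SE, n = 4 per group) did not pass the test (adjusted p = 0.60). ZR-75-30 held 0 to 4 IGF2 reads per library and HCC1500 0 to 2, around the floor of 3 reads, and no direction was read from them. Of the exonic bases of IGF2, 3084 are shared on the same strand with other annotated genes, the INS-IGF2 readthrough among them, so its reads cannot be assigned to IGF2 alone. H19, the neighbouring imprinted RNA, fell from 105 ± 15.7 to 82.2 ± 2.48 in MDA-MB-175 (SD, n = 4; log2 change -0.33, adjusted p = 0.0263). The other ligand of the list with values in the table, IGF1, did not pass the filter on low values in any line.

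INSR, the insulin receptor (chr19:7112266-7294425, minus strand), rose in MDA-MB-175 and ZR-75-30. In MDA-MB-175 the 4 low-glucose samples read 465, 440, 493 and 447 and the 4 high-glucose samples 750, 828, 810 and 777. In ZR-75-30 the values were 190, 203, 199 and 190 at low and 382, 352, 346 and 383 at high glucose. Every high-glucose sample lay above every low-glucose sample in both lines, and the log2 changes were 0.78 ± 0.05 (SE, adjusted p = 1.11e-08) and 0.90 ± 0.06 (adjusted p = 3.15e-10). HCC1500 showed no such separation, with 229, 245.5, 252 and 230 at low glucose and 255, 244, 153 and 229 at high glucose. There the change was -0.15 ± 0.16 (adjusted p = 0.576) with all samples and 0.02 ± 0.06 (adjusted p = 0.784) without replicate 3. Under TMM rescaling without that library it was 0.15 (adjusted p = 0.0303).

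IGF1R, the receptor for IGF1 and IGF2 (chr15:99191768-99507759, plus strand), rose in all 3 lines once replicate 3 of HCC1500 was set aside. MDA-MB-175 had 310, 329, 319 and 315 at low and 365, 375, 385 and 398 at high glucose. ZR-75-30 had 179, 176, 187 and 172 at low and 242, 221, 218 and 219 at high glucose. These changes were small and did not overlap, at 0.26 ± 0.05 (adjusted p = 0.00106) and 0.33 ± 0.06 (adjusted p = 0.000199). HCC1500 started far higher, at 2136, 2133, 2069 and 2168, and read 3630, 3576, 1859 and 3646 at high glucose, the low value being replicate 3. Its change was 0.53 ± 0.21 (adjusted p = 0.115) with that library and 0.77 ± 0.03 (adjusted p = 3.4e-14) without it.

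IGF2R (chr6:160390114-160534539, plus strand) gave the same picture from a higher base. Its values at low glucose were 1064, 1194, 1151 and 1149 in MDA-MB-175, and 1121, 1290, 1215 and 1081 in ZR-75-30. HCC1500 started at 3129, 3045, 3019 and 3122. At high glucose the values were 1468, 1507, 1487 and 1397, then 1691, 1754, 1764 and 1721, and in HCC1500 3884, 3757, 1935 and 3908. All high-glucose samples other than HCC1500 replicate 3 lay above the low-glucose samples of their line. The log2 changes were 0.36 ± 0.04 (adjusted p = 1.39e-05) in MDA-MB-175 and 0.56 ± 0.05 (adjusted p = 1.83e-08) in ZR-75-30. In HCC1500 the change was 0.07 ± 0.22 (adjusted p = 0.851) with all samples and 0.32 ± 0.03 (adjusted p = 4.22e-09) without replicate 3. M6PR encodes the cation-dependent mannose-6-phosphate receptor, which shares the cargo of IGF2R but not its binding of IGF2. Its RNA rose in ZR-75-30 by 0.39 and in MDA-MB-175 by 0.33 on the log2 scale. In HCC1500 the M6PR rise was 0.70 with all samples and 0.63 without replicate 3.

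Because INSR and IGF1R moved by different amounts, their ratio within a sample, taken per kilobase of canonical transcript, shifted with glucose in all 3 lines. The MDA-MB-175 ratio of INSR to IGF1R was 1.73 to 1.999 at low and 2.52 to 2.85 at high glucose, and in ZR-75-30 1.37 to 1.49 and 2.04 to 2.27. In HCC1500 it went the other way, from 0.137 to 0.158 at low glucose to 0.0810 to 0.106 at high glucose. The groups did not overlap in any line, and replicate 3 of HCC1500, at 0.106, was nearest to the low-glucose samples. Both transcripts are long, at 9463 and 12235 bases. These ratios are descriptions and were not tested.

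IRS1, the adaptor that prevails downstream of IGF1R in many ER+ cells (chr2:227596028-227664536, minus strand), fell in MDA-MB-175 and, with replicate 3 set aside, rose in HCC1500. MDA-MB-175 had 484, 468, 518 and 417 at low and 392, 414, 417 and 370 at high glucose. The groups touched at 417, and the change of -0.24 ± 0.06 passed the test (adjusted p = 0.0112). In HCC1500 the low-glucose values were 571, 571, 585 and 571, the high-glucose values 830, 903, 435 and 934. The change was 0.37 ± 0.22 (adjusted p = 0.29) with all samples and 0.63 ± 0.04 (adjusted p = 1.83e-10) without replicate 3. ZR-75-30 had 0 IRS1 reads in each of its 4 low-glucose libraries and 0, 3, 2 and 0 reads at high glucose, too few to test.

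IRS2 (chr13:110405042-110438930, minus strand) rose in every line and was the member with the largest change in MDA-MB-175 and ZR-75-30. Its values were 42.9, 50.9, 34.2 and 36.6 at low and 80.7, 86.3, 92.1 and 92.0 at high glucose in MDA-MB-175, for a change of 1.09 ± 0.12 (adjusted p = 7.39e-06). In HCC1500 they were 41.4, 32.7, 25.7 and 33.2 at low and 81.4, 82.6, 86.9 and 97.9 at high glucose, a change of 1.38 ± 0.16 (adjusted p = 0.000613), which was 1.38 also without replicate 3. In ZR-75-30 the low-glucose libraries held 4, 0, 2 and 4 reads, 10 in all, and the high-glucose libraries 74, 32, 62 and 47, 215 in all. The ZR-75-30 values went from 2.22, 0, 1.14 and 3.05 to 38.5, 21.6, 26.3 and 32.2, a log2 change of 3.71 ± 0.37 (adjusted p = 1.53e-07) and a ratio of means of 18.5 that rests on those 10 reads. No high-glucose sample overlapped a low-glucose sample in any line.

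The balance of the adaptors, again per kilobase and as a description, moved with glucose in both lines that express both. The ratio of IRS1 to IRS2 in MDA-MB-175 was 7.67 to 12.7 at low and 3.36 to 4.06 at high glucose. In HCC1500 it was 11.5 to 19.01 at low glucose, 7.97 to 9.13 in 3 high-glucose samples and 4.18 in replicate 3. At high glucose ZR-75-30 carried IRS2 RNA at 3.64 ± 0.90 per kilobase (SD, n = 4) with IRS1 at or below the floor.

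**Figure D3:**
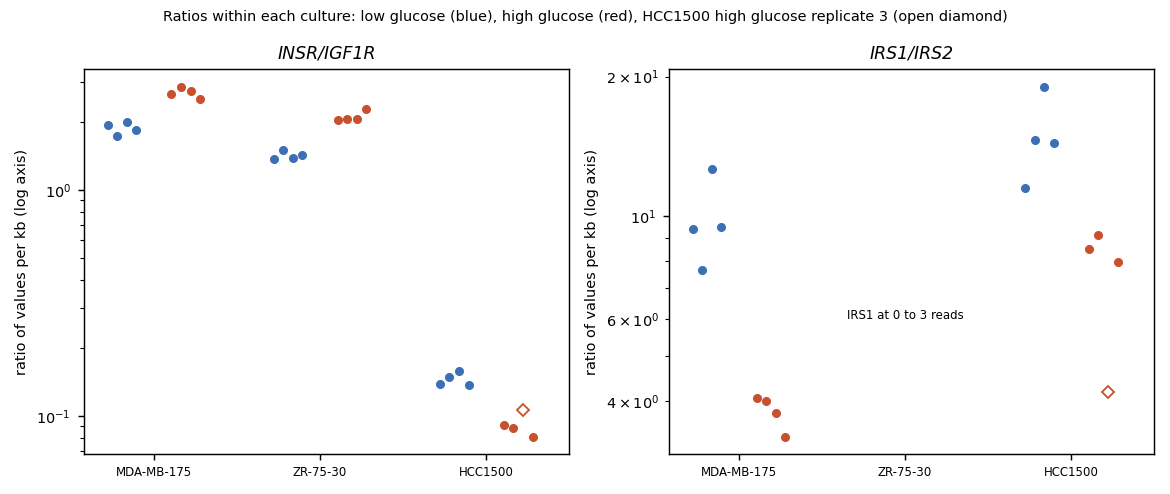
Ratio of INSR to IGF1R (left) and of IRS1 to IRS2 (right) in each culture, from values per kilobase of canonical transcript, on log axes; blue is low and red high glucose, and the open diamond is HCC1500 high glucose replicate 3. The receptor ratio rose in ZR-75-30 and MDA-MB-175 and dropped in HCC1500 at high glucose, and the adaptor ratio was lower at high glucose in both lines shown.

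Promoter sequences of 9 of the 10 members were found in a RefSeq table (GRCh38.p14), each window being 300 bases from 250 before the transcription start to 50 after it. Windows are shown for IGF2R and IRS1, the members that hold an E-box (CACGTG), and for IRS2, the member that rose in every line. The E-box is the motif bound by factors such as MYC and the TFEB family. Capitals mark the E-box.

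IGF2R, chr6:159968832-159969131, plus strand: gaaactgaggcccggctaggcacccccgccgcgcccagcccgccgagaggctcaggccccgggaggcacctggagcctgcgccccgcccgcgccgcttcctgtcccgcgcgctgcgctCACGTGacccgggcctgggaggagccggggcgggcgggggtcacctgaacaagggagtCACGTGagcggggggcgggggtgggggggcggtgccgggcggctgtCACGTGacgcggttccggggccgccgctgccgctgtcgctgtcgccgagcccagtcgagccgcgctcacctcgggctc
IRS1, chr2:226799771-226800070, minus strand: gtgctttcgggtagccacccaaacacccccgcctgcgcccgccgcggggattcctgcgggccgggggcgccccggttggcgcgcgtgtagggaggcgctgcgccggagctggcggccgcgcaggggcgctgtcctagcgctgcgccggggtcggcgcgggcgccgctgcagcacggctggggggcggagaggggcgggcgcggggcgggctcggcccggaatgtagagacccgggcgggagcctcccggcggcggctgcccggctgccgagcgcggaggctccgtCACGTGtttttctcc
IRS2, chr13:109786534-109786833, minus strand: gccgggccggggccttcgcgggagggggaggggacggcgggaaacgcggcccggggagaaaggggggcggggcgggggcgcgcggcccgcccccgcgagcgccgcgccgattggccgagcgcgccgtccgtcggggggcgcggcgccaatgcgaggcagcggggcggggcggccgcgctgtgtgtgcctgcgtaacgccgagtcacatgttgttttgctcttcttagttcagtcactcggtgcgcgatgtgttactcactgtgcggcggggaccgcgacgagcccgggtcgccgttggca

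The IGF2R window held 3 copies of CACGTG, starting at bases 119, 177 and 223 of the window, and the IRS1 window 1 copy at base 286. Among 27305 promoters, 1 per gene, 7.43% held at least 1 copy and 28 (0.103%) held 3 or more. The FOXO motif TGTTTAC, found on either strand in 3.41% of promoters, and the palindromic estrogen response element, half-sites GGTCA and TGACC set 3 bases apart (0.0659% of promoters), had no match in any of the 11 windows of the 9 members. The E-box reads the same on both strands, and these motifs do not overlap. A match describes letters in a window. The lack of one covers these exact forms only, and says nothing about variant sites in the window or a factor's binding there or elsewhere.

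Among the binding proteins, IGFBP5 had the highest RNA level per kilobase of all members in each line and fell with glucose. It drew more reads than any other gene in all 4 low-glucose libraries of HCC1500, 1.20% to 1.25% of the total, and 0.868% to 0.917% in those of ZR-75-30. In ZR-75-30 its values were 65036, 66086, 67154 and 62739 at low and 47815, 46364, 46773 and 45094 at high glucose, a log2 change of -0.49 ± 0.05 (adjusted p = 7.9e-08). In HCC1500 they were 69348, 71342, 67653 and 69319 at low and 57869, 58176, 39546 and 60107 at high glucose. All high-glucose values were below all low-glucose values; the change was -0.38 ± 0.15 (adjusted p = 0.118) with replicate 3 and -0.24 ± 0.02 (adjusted p = 5.99e-08) without it, or -0.11 after TMM rescaling. MDA-MB-175 had 4460, 4455, 4572 and 4148 at low and 3931, 4095, 4084 and 3989 at high glucose. That change of -0.13 ± 0.04 passed narrowly (adjusted p = 0.023) and was lost under TMM rescaling (adjusted p = 0.0551) and without either of 2 low-glucose or 2 high-glucose replicates (low 2 and 3, high 1 and 4), at adjusted p of 0.0589 to 0.0796.

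IGFBP2 lies 7668 bases from IGFBP5 on chromosome 2 (IGFBP2 chr2:217497551-217529159, plus strand, IGFBP5 chr2:217536828-217560272, minus strand, with 487 exonic bases opposite an antisense RNA). IGFBP2 moved against IGFBP5 in ZR-75-30 and fell, as IGFBP5 did, in HCC1500 without replicate 3. In ZR-75-30 it rose from 412 ± 28.5 to 490 ± 47.1 (SD, n = 4; log2 change 0.25, adjusted p = 0.00405), with overlapping groups. In HCC1500 it read 2236, 2405, 2285 and 2281 at low and 1614, 1654, 4550 and 1658 at high glucose. Replicate 3 stood far above its fellows, and the change was -0.12 ± 0.31 (adjusted p = 0.833) with it and -0.49 ± 0.03 (adjusted p = 9.04e-11) without it. In MDA-MB-175 the change of 0.10 ± 0.06 did not pass (adjusted p = 0.275).

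IGFBP3 (chr7:45951844-45961473, minus strand), the main carrier of IGFs in blood, moved in opposite directions in MDA-MB-175 and HCC1500. MDA-MB-175 had 140, 139, 130 and 131 at low and 98.2, 90.3, 67.5 and 109 at high glucose, a log2 change of -0.58 ± 0.12 (adjusted p = 0.00146). HCC1500 had 17.1, 17.5, 17.6 and 17.2 at low and 43.7, 41.3, 65.3 and 46.2 at high glucose, a change of 1.43 ± 0.17 (adjusted p = 0.000673), and 1.28 ± 0.14 without replicate 3. The groups did not overlap in either line. In ZR-75-30 the gene was near the floor, with 1 to 4 reads per library at low and 5 to 12 at high glucose. The change there of 1.02 ± 0.40 (adjusted p = 0.0448) was lost with edgeR on the recovered reads (adjusted p = 0.06) and without any of 6 of the 8 libraries, at adjusted p of 0.0529 to 0.156.

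FOXO1 (chr13:41129804-41240778, minus strand) was well above the floor, and rose, in ZR-75-30 and MDA-MB-175. MDA-MB-175 had 79.9, 72.4, 78.6 and 83.9 at low and 131, 132, 129 and 105 at high glucose, and ZR-75-30 92.5, 94.4, 103 and 93.9 at low and 116, 140, 128 and 110 at high glucose. The log2 changes were 0.65 ± 0.09 (adjusted p = 7.79e-05) and 0.36 ± 0.09 (adjusted p = 0.00286), without overlap between the groups. HCC1500 libraries held 0 to 4 FOXO1 reads, 2 in all at low and 6 at high glucose. Of its exonic bases 1352 are shared with another annotated gene on the same strand. The related FOXO3 and FOXO4 rose by 0.37 and 0.36 in MDA-MB-175 and by 0.75 and 0.55 in ZR-75-30, where 11.9% and 23.4% of all genes rose. FOXO6, the other listed factor, passed in neither, at 0.06 (adjusted p = 0.811) and -0.29 (adjusted p = 0.147). In HCC1500 FOXO3 had a change of 0.07 (adjusted p = 0.83) with all samples and 0.25 (adjusted p = 0.00109) without replicate 3, and FOXO4 passed under neither.

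**Figure D4:**
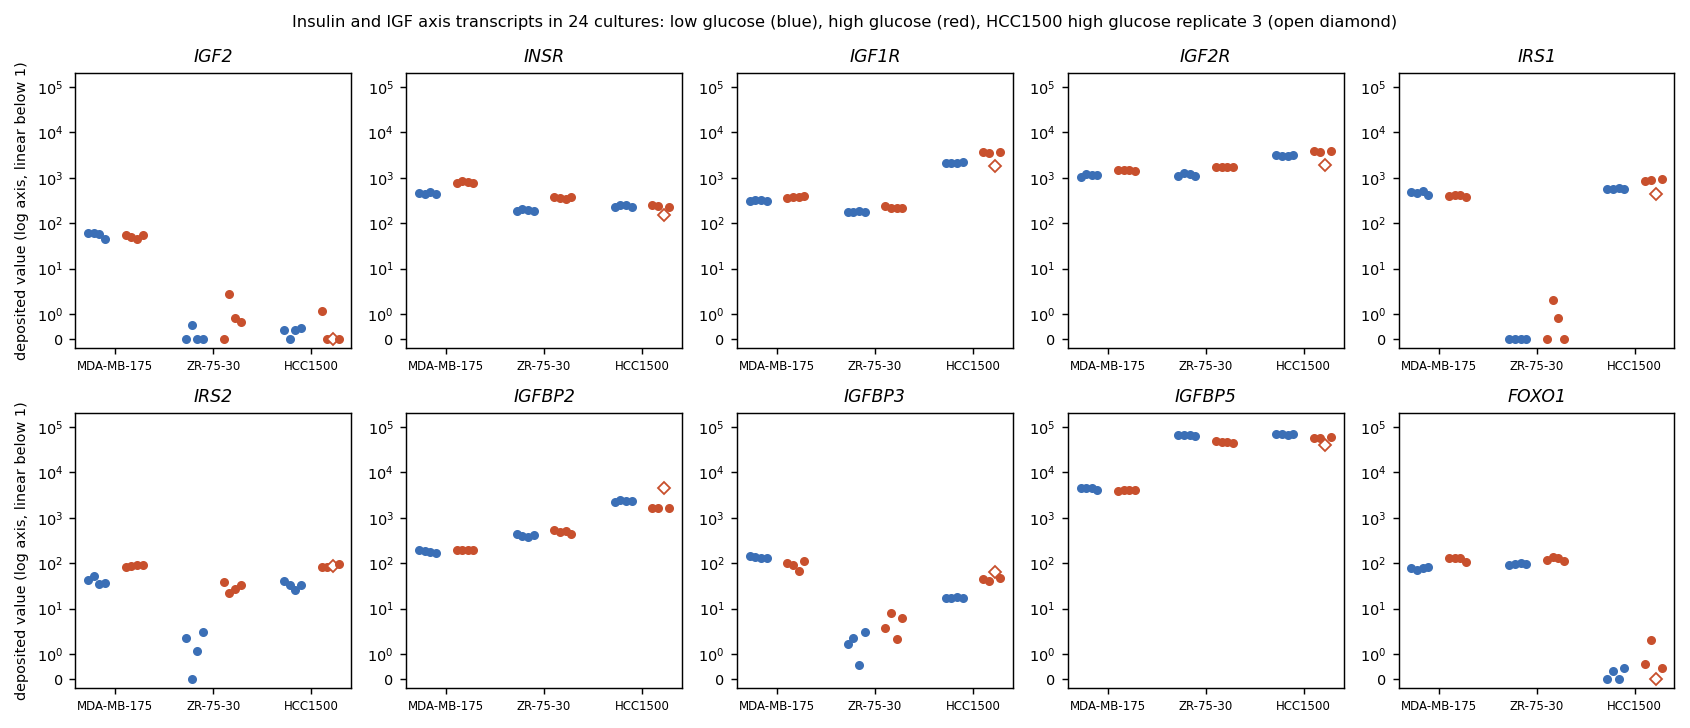
Deposited value of each axis gene (vertical log axis, linear below 1) in each of the 24 cultures, by line; blue is low and red high glucose, and the open diamond is HCC1500 high glucose replicate 3. IRS1 is near 0 in ZR-75-30, FOXO1 near 0 in HCC1500 and IGF2 near 0 in both, and IGFBP5 reaches 71342 in HCC1500.

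Levels at low glucose also differed between lines. Of 30 member and line pairs, 26 passed the test, 8 of 10 between ZR-75-30 and MDA-MB-175 (73.1% of all genes), 9 between HCC1500 and MDA-MB-175 (80.6%) and 9 between HCC1500 and ZR-75-30 (80.4%), so that differing between lines was the rule for the whole transcriptome. HCC1500 carried the most IGF1R, 2127 ± 41.5 against 318 ± 8.13 in MDA-MB-175 and 178 ± 6.14 in ZR-75-30 (SD, n = 4), a log2 difference of 2.74 and 3.57. It also had the most IGF2R (3079 ± 55.1) and IGFBP2 (2302 ± 72.2). The IGF2R difference between ZR-75-30 (1177 ± 94.2) and MDA-MB-175 (1139 ± 54.5) was within the spread as deposited (log2 difference 0.04, adjusted p = 0.445) and its direction depended on scaling. ZR-75-30 was lower by CPM (IGF2R log2 difference -0.19, adjusted p = 0.00439) and higher by median-of-ratios (0.13, adjusted p = 0.0338), TMM (0.14, adjusted p = 0.0242) and edgeR (0.15, adjusted p = 0.00999). INSR ran from MDA-MB-175 (461 ± 23.6) to HCC1500 (239 ± 11.5) to ZR-75-30 (195 ± 6.66), with the last pair 0.29 apart (adjusted p = 7.68e-05) as deposited and 0.10 apart (adjusted p = 0.0795) after TMM rescaling.

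IRS1 was at least 206-fold higher in MDA-MB-175 and at least 251-fold higher in HCC1500 than in ZR-75-30 at low glucose, computed against 3 reads in the library with the highest floor. HCC1500 exceeded MDA-MB-175 by 0.29 ± 0.08 on the log2 scale (adjusted p = 0.00397). IRS2 was also lowest in ZR-75-30, and the difference between HCC1500 (33.3 ± 6.44) and MDA-MB-175 (41.2 ± 7.48) was within its spread (adjusted p = 0.422). IGFBP5 was 3.89 and 3.98 log2 units higher in ZR-75-30 and HCC1500 than in MDA-MB-175. Between the former pair its order depended on scaling, 0.09 higher in HCC1500 as deposited (adjusted p = 0.0266) and 0.10 higher in ZR-75-30 by TMM (-0.10, adjusted p = 0.0142). IGFBP3 ran in the order MDA-MB-175 (135 ± 5.42), HCC1500 (17.4 ± 0.241) and ZR-75-30 (1.89 ± 1.05), each step passing the test. The FOXO1 difference between ZR-75-30 (96.0 ± 4.82) and MDA-MB-175 (78.7 ± 4.79) did not pass as deposited (log2 difference 0.28, adjusted p = 0.101) or by CPM (0.05, adjusted p = 0.79). It passed by median-of-ratios (0.37, adjusted p = 0.0353), TMM (0.38, adjusted p = 0.0314) and edgeR (0.38, adjusted p = 0.0017) and with a pseudocount of 5 (0.27, adjusted p = 0.0148). The HCC1500 libraries were below the FOXO1 floor in all 4 cases.

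The change with glucose was then compared between lines. An F test on 24 samples passed for 3 of 10 members, INSR (adjusted p = 1.35e-05), IRS2 (adjusted p = 3.99e-05) and IGFBP3 (adjusted p = 0.000845), against 29.3% of all genes. INSR changed less in HCC1500 than in MDA-MB-175 by 0.92 ± 0.15 (a difference of -0.92, adjusted p = 9.56e-05) and less than in ZR-75-30 (-1.05 ± 0.15, adjusted p = 1.31e-05), while the other two lines differed by 0.12 (adjusted p = 0.705). IRS2 changed more in ZR-75-30 than in MDA-MB-175 (2.62 ± 0.40, adjusted p = 0.000114), with the 10 reads at low glucose noted above. The IGFBP3 response differed between HCC1500 and MDA-MB-175 by 2.01 ± 0.39 (adjusted p = 0.000781). Without HCC1500 replicate 3 the F test passed for 8 members, against 48.6% of all genes, adding IGF1R, IGF2R, IRS1, IGFBP2 and IGFBP5. In that fit the INSR differences were -0.76 from MDA-MB-175 and -0.88 from ZR-75-30, IGF1R rose more in HCC1500 than in MDA-MB-175 (0.51 ± 0.05, adjusted p = 1.29e-07) and the IRS1 response differed between the same lines by 0.87 ± 0.31 (adjusted p = 0.0348). The FOXO1 and IGF2 responses passed in neither fit. FOXO1 was near the floor of 3 reads in HCC1500, and IGF2 in HCC1500 and ZR-75-30. Those lines could show little of a response, so no likeness between lines is read from these 2 tests. IRS1, too low to test within ZR-75-30, was included in the F test.

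The wider pathway was read from 9 lists, 84 genes in all, of which 76 were in the table. In MDA-MB-175, 73 of them were tested, 21 rose and 12 fell, where 11.9% of all genes tested rose and 13.7% fell, with a median change of -0.03 against -0.02 over all genes. In ZR-75-30, 24 of 66 rose and 11 fell, against 23.4% and 22.7% of all genes (median 0.07 against 0.01). In HCC1500, 8 of 66 rose and 10 fell with all samples, against 7.46% and 13% of all genes. Without replicate 3, 23 of 65 rose and 24 fell, against 20.9% and 37.7% (median -0.02 against -0.12). These shares of all genes are the background for each list below, and no list was tested as a set.

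Of 15 adaptors and proximal regulators, 13 were tested in MDA-MB-175, where 2 rose and 2 fell (median change 0.02), near the 11.9% and 13.7% of all genes. In ZR-75-30 3 of 14 rose and 3 fell (0.06), against 23.4% and 22.7%. In HCC1500 1 of 14 rose and 2 fell (-0.16), against 7.46% and 13%, or 3 and 7 of 14 without replicate 3, against 20.9% and 37.7%. GRB14, an inhibitor of the insulin receptor kinase, rose in HCC1500 (281 ± 12.03 to 453 ± 155, adjusted p = 0.0488, and to 376 ± 12.3 without replicate 3). SOCS1 and SOCS3, cytokine-induced inhibitors that also act on IRS proteins, rose from low levels, SOCS1 in ZR-75-30 (log2 change 1.47) and SOCS3 in MDA-MB-175 (0.61, adjusted p = 0.0492). In HCC1500, where SOCS3 was most abundant, it read 106 ± 2.52 at low and 94.0 ± 22.2 at high glucose (adjusted p = 0.431), and without replicate 3 it fell to 83.6 ± 8.73 (-0.34, adjusted p = 0.00188). Of 10 binding proteins, partners and proteases, 7 were tested in MDA-MB-175, where 1 rose and 2 fell (median -0.20). In ZR-75-30 2 of the 4 tested rose (0.47), against 23.4% of all genes, and in HCC1500 2 of 5 rose with all samples (0.38), against 7.46%. IGFBP4 fell in MDA-MB-175 (296 ± 6.09 to 244 ± 11.7) and rose in ZR-75-30 (692 ± 26.1 to 1005 ± 67.4) and HCC1500 (850 ± 19.8 to 1403 ± 35.6 without replicate 3). STC2, an inhibitor of the IGFBP protease PAPP-A, rose in all 3 lines by 0.81, 0.44 and 0.46. HTRA1, a secreted protease, fell in MDA-MB-175 (-0.43, adjusted p = 0.0197).

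In the PI3K and AKT list, 3 of 16 tested rose and 4 fell in MDA-MB-175 (median -0.04; 11.9% and 13.7% of all genes). In ZR-75-30 5 of 15 rose and 3 fell (0.01), against 23.4% and 22.7%. In HCC1500 1 of 15 rose and 4 fell (-0.13), against 7.46% and 13%, or 4 and 7 of 14 without replicate 3, against 20.9% and 37.7%. PIK3IP1, an inhibitor of PI3 kinase, rose in ZR-75-30 (112 ± 14.9 to 159 ± 4.24). With all samples it fell in HCC1500 (129 ± 5.90 to 63.8 ± 7.95, log2 change -1.01, adjusted p = 0.000613). PIK3CD in ZR-75-30 (0.96) was called at mean values below 4, near the floor. All 14 TSC and mTOR genes were tested in each line, and read against the same shares 6 rose and 1 fell in MDA-MB-175 (median 0.07), and 5 rose and 4 fell in ZR-75-30 (-0.05). In HCC1500 0 rose and 1 fell by limma (0.05), or 5 and 6 without replicate 3. TSC1, a brake on mTOR complex 1, rose by 0.35 in MDA-MB-175 and 0.85 in ZR-75-30, and by 0.58 in HCC1500 without replicate 3. DDIT4, a stress-induced inhibitor of mTOR, rose in MDA-MB-175 (0.32) and fell in ZR-75-30 (-0.39) and HCC1500 (-0.71 with all samples). DEPTOR, another mTOR inhibitor, fell in ZR-75-30 from 2212 ± 41.0 to 1508 ± 27.6.

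Of 17 FOXO target genes, 15 were tested in MDA-MB-175, where 6 rose and 2 fell (median -0.03), against 11.9% and 13.7% of all genes. In ZR-75-30 6 of 13 rose and 1 fell (0.09), against 23.4% and 22.7%. In HCC1500 3 of 14 rose and 3 fell (0.06), against 7.46% and 13%, or 7 and 4 of 14 without replicate 3 (0.21), against 20.9% and 37.7%. GADD45A, a growth arrest gene, rose in ZR-75-30 (47.6 ± 5.6 to 136 ± 21.6) and HCC1500 (70.8 ± 6.02 to 137 ± 35.6 with all samples). It read 20.6 ± 6.61 at low and 28.6 ± 2.40 at high glucose in MDA-MB-175 (adjusted p = 0.0733). PDK4, which restrains glucose oxidation, rose in MDA-MB-175 (92.2 ± 9.26 to 149 ± 14.1). With all samples it also rose in HCC1500 from near the floor (0.727 to 4.24, log2 change 1.53, adjusted p = 0.0137). In ZR-75-30 PDK4 did not pass (0.09, adjusted p = 0.839). KLF15 rose in MDA-MB-175 (0.82) and from near the floor in ZR-75-30 (1.59). Of the 4 IGF2 RNA-binding proteins and neighbours, H19 was the 1 called, in MDA-MB-175.

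Finally, the genes whose profile was most like each member were found among 10871 genes by correlation of log2 values over 23 samples, with each line's mean subtracted and replicate 3 of HCC1500 left out. All points share the glucose contrast, so these correlations describe it. IGF1R was closest to DDX3X (Pearson's r = 0.987) and FNIP1 (0.975), INSR to CD97 (0.969) and ACSL1 (0.967), and IGF2R to CYP1A1 (0.973) and PPP1R15A (0.967). IGFBP5 was closest to DNMT1 (0.985) and BRI3BP (0.98), IRS2 to POLR1D and HSPA13 (0.956 each), IGFBP2 to KDELR3 (0.938) and GAA (0.935), and FOXO1 to SWT1 (0.882) and STK38L (0.863). IRS1, IGFBP3 and IGF2 had no gene above 0.845, their closest being STK11 (0.811), PPFIA1 (0.845) and ERICH1 (0.799). With replicate 3 included, DDX3X kept r = 0.989 with IGF1R and ACSL1 0.95 with INSR, whereas CYP1A1 fell to 0.636 and PPP1R15A to 0.538 with IGF2R. The falls were larger for STK11 with IRS1, to 0.192, and PPFIA1 with IGFBP3, to 0.268. Among the members themselves, INSR and IGF2R were the most alike pair (r = 0.873 over the same 23 samples), followed by IGF2R and IRS2 (0.842).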

How the data were processed

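The authors deposited 1 table of a signal per gene and sample. The study's methods describe edgeR CPM with TMM factors, but the deposited columns sum to 5559394 to 7594840, which such values would not, so the scaling of this table is not known. Each sample's values were multiples of its own smallest nonzero value (100% within 0.1 reads), so reads were recovered as counts. The methods name Trimmomatic, TopHat, hg19 with Ensembl v70, edgeR and DESeq2, and the submitters' processing notes name edgeR and hg38. The read counter and its strand setting are not given in the sources used here. Samples were grouped by their titles. CPM had been assumed when the tests were planned, and the planned test on the log2 scale was used.

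Each line's 8 samples were fitted with limma 3.58.1 (R 4.3.3, trend, two-sided) on log2(value + 1), for genes that reached 0.5 in no fewer than 4 samples, with Benjamini-Hochberg adjustment over all genes tested. Log2 changes on this scale understate those of low genes. Lines were compared on the 12 low-glucose samples, and responses on all 24 samples. All adjusted p-values are limma's unless another tool is named. Scripts were tested on simulated data. Alternatives, tried one at a time, changed the pseudocount, filter, scaling, tool (edgeR 4.0.16, DESeq2 1.42.0), weights, length trend, samples or replicate block; 5 that combine leaving out HCC1500 high glucose replicate 3 with another choice were added after seeing the data. In bulk RNA, fewer expressing cells and less RNA per cell cannot be told apart.

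Gene coordinates are GRCh37 (GENCODE 44 lifted), which matched 18183 gene IDs (96.3%), and promoters GRCh38.p14. The members and lists were chosen with earlier results of these data known. Named genes were all members, at most 3 called genes per list with the largest change in any line, the 2 genes most like each member, and TXNIP; a gene that this rule names is not reported here. A symbol on several IDs was counted once, by its higher mean.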

Additional observations from a re-analysis of the deposited data

Results flagged for a closer look

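In 10 of 60 member and group sets of 4 values, 1 sample stood apart from the rest (by its gap to the nearest value as a share of the whole range, printed below), where chance flags about 1 in 20. HCC1500 high glucose replicate 3 accounts for 4 of them, low for IGF1R (0.961), IGF2R (0.923) and IGFBP5 (0.891) and high for IGFBP2 (0.985). IGF1R was high in ZR-75-30 high glucose replicate 1 (0.859), and FOXO1 low in MDA-MB-175 high glucose replicate 4 (0.906). IRS1 in HCC1500 low glucose replicate 3 (0.976) stood apart at 585 while the other 3 lay at 571. IGF2 was singled out at 0 to 2 reads in ZR-75-30 low glucose replicate 2 (1), HCC1500 low glucose replicate 2 (0.883) and HCC1500 high glucose replicate 1 (1).

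The change with glucose differed between lines (limma F test over all genes) for INSR (adjusted p = 1.35e-05), IRS2 (adjusted p = 3.99e-05) and IGFBP3 (adjusted p = 0.000845).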

How the results depend on the processing

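Counts of members called moved by more than 1.5 times in these cases only. The fit on all 24 samples, whose pooled spread includes HCC1500 replicate 3, called 4 members in HCC1500, 5 in ZR-75-30 and 2 in MDA-MB-175. In HCC1500, sample weights called 7, and leaving out replicate 3 called 7 as deposited, by CPM, by edgeR and with a replicate block, and 8 by median-of-ratios or TMM. Leaving out 1 replicate at a time gave 2 to 7 members in HCC1500, 7 to 8 in MDA-MB-175 and also in ZR-75-30, 25 to 26 of 30 between lines and 3 to 8 for responses that differ; the highest HCC1500 and response counts are those without high glucose replicate 3.

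Same-numbered replicates did not pair (mean correlation of deviations 0.05, 0.04 and 0.02 in the 3 lines, and -0.02 to -0.01 for different numbers), and a replicate block left the counts at 8, 8, 2, 26 and 3.

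Signs that turned were mostly of changes that did not pass as deposited. Between HCC1500 and ZR-75-30 at low glucose, however, INSR (adjusted p = 7.68e-05) and IGFBP5 (adjusted p = 0.0266) had passed. In HCC1500, IGFBP2 became 0.0117 by edgeR, 0.035 by DESeq2 and 0.0116 without high glucose replicate 1 (range with 1 replicate left out -0.487 to 0.0116). INSR became 0.0069 with weights and, without replicate 3, 0.0194 as deposited, 0.042 by CPM, 0.142 by median-of-ratios, 0.147 by TMM, 0.126 by edgeR and 0.0453 with the block (range -0.225 to 0.0194). IGF2R became -0.00082 by CPM, -0.0127 without high glucose replicate 1 and -0.0157 without 4 (range -0.0157 to 0.322). Between lines, IGF2R (ZR-75-30 minus MDA-MB-175) became -0.19 by CPM (adjusted p = 0.00439), but 0.13 to 0.15 by median-of-ratios, TMM and edgeR, which all passed. It was -0.00111 without ZR-75-30 low glucose replicate 2 (range -0.00111 to 0.0839). IGFBP5 (HCC1500 minus ZR-75-30) became -0.0584, -0.1001 and -0.0796 by median-of-ratios, TMM and edgeR (adjusted p = 0.0939, 0.0142 and 0.0247). At high glucose FOXO1 (ZR-75-30 minus MDA-MB-175) was -0.0057 with and without HCC1500 replicate 3. For HCC1500 minus ZR-75-30 at high glucose, with and without that replicate, IGF2 was -0.60 and -0.51. INSR was -0.76 (adjusted p = 0.00027) and -0.59 (adjusted p = 8.2e-08), and both passed. The comparisons at high glucose use other samples, not another processing. INSR averaged 195 at low and 366 at high glucose in ZR-75-30, and 239 and 220 in HCC1500 (243 without replicate 3). The cause of the turns was not tested. Depth limits IGF2 and FOXO1 in HCC1500, IGF2 and IRS1 in ZR-75-30, and IRS2 and IGFBP3 at low glucose in ZR-75-30.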
